A study of Mus musculus with 15 samples.

Results

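Purkinje cells are the large inhibitory neurons whose axons leave the cerebellar cortex. Levels of 9 transcription factor genes listed for these cells were followed across a mouse study of spinocerebellar ataxia type 1. Not all 9 are particular to Purkinje cells. They were Rora and its relative Rorb, the LIM homeodomain genes Lhx1 and Lhx5, the forkhead genes Foxp2 and Foxp4, the corepressor gene Skor2, the orphan receptor gene Esrrb and Ebf1. The 9 genes were chosen by name from the 24420 gene rows of the count table, with earlier results of these data known. The study sequenced RNA from dissected cerebella of 15 libraries, 5 in each of 3 groups. The 82Q_M120A group carried Atxn1[82Q] together with CalphaLoxM120A, an altered allele of Prkaca, the gene of a catalytic subunit of protein kinase A, on a mixed c57Bl/6J and FVB/nJ background at 8 weeks of age. The 82Q group carried Atxn1[82Q] on FVB/nJ at 9 weeks, and the wild type (WT) group was FVB/nJ at 9 weeks. In the text deposited with the series the 82Q allele is called a knockin, and neither the promoter or cell type that drives it nor a Cre that acts on the kinase allele is named in the sources used here. The kinase allele, strain and age differ together between 82Q_M120A and each of the other groups and cannot be told apart, and no group carried the kinase allele alone.

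Several transcription factors are needed for the development of Purkinje cells. RORA, a nuclear receptor of the ROR family, binds DNA as a monomer at an AGGTCA core preceded by an AT-rich stretch, and mice without it (the staggerer mutant) have few, small Purkinje cells with stunted dendrites. LHX1 and LHX5 act with the cofactor LDB1 in the differentiation of mouse Purkinje cells, SKOR2 is a repressor of the SKI family needed for the same step, FOXP2 and FOXP4 are forkhead repressors present in these cells, and EBF proteins are helix-loop-helix factors of the developing cerebellum. Polyglutamine-expanded ATXN1 acts in the nucleus and has been reported to affect RORA.

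Libraries held between 38.3 and 99.4 M counts (M, mega), and values are CPM, counts of a gene relative to the TMM-scaled total of its library. Libraries are numbered by column order within a group, because the columns carry no replicate number. Each column name also holds a number of unstated meaning, and those of 82Q_M120A all lie above those of the other groups. The labels do not say whether the samples of a group were separate animals, so a p-value reflects only how far these libraries vary, which may be technical. Mouse Atxn1 averaged 53.9 ± 2.14 CPM in 82Q_M120A, 56.5 ± 1.75 in 82Q and 52.9 ± 6.20 in WT (SD, n = 5 each) and was not called in any comparison, and a gene count does not separate the alleles. Prkaca averaged 145 ± 5.54 CPM in 82Q_M120A, 164 ± 5.76 in 82Q and 168 ± 3.60 in WT, and fell in 82Q_M120A against both other groups. Libraries also stood apart in choroid plexus transcripts. The 7 choroid plexus markers summed to 1640 CPM or more in 1 library of 82Q_M120A, 2 of 82Q and 4 of WT, and to 306 CPM or less in the other 8 libraries.

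**Figure D1:**
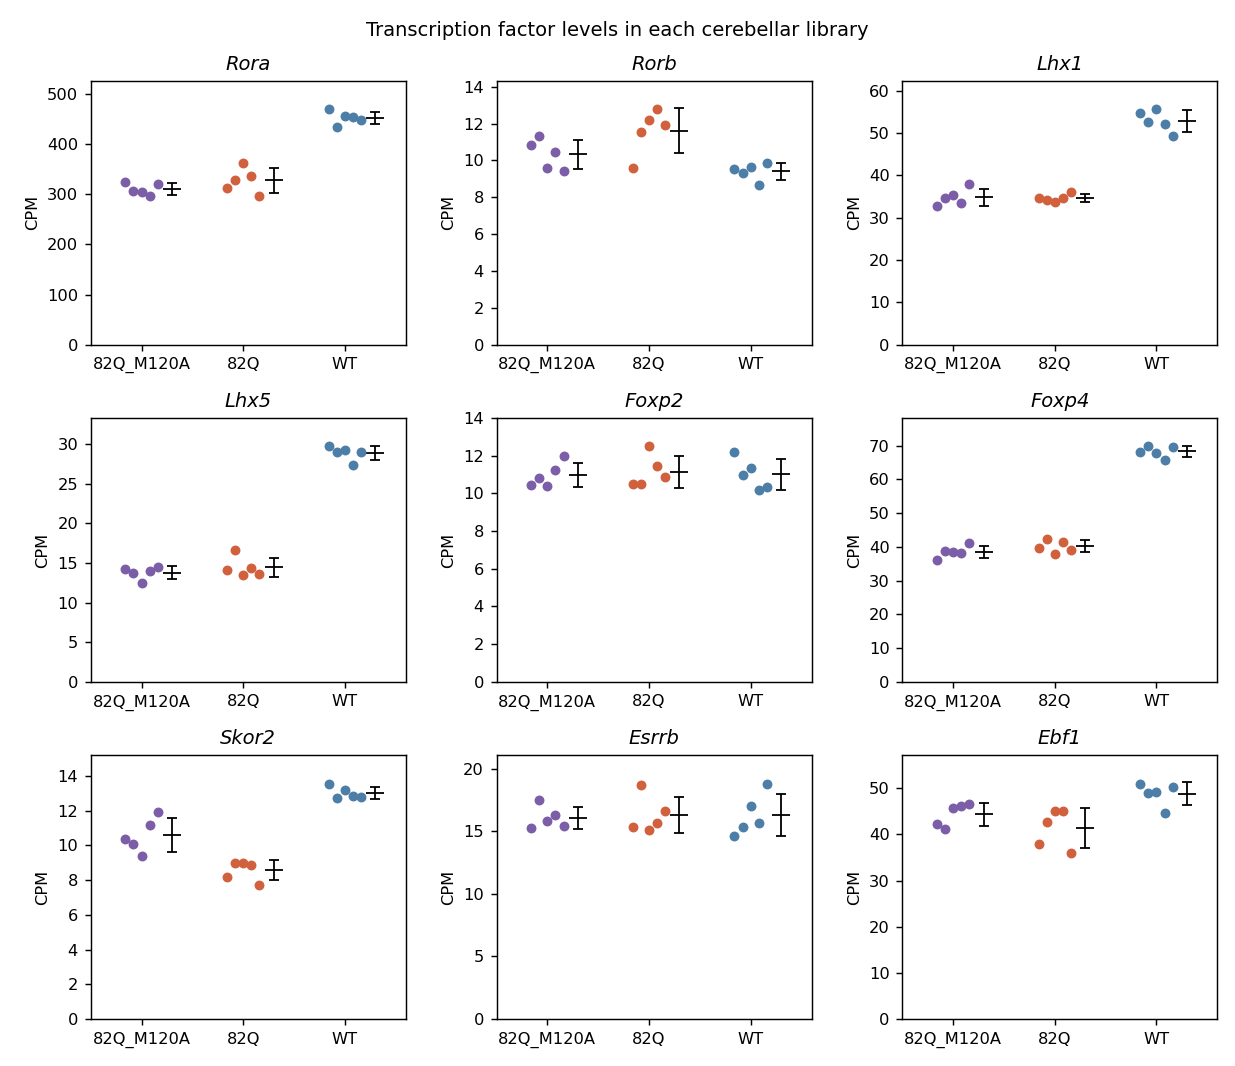
Level of each transcription factor gene in every library. The vertical axis of each panel is CPM from 0, points are libraries in the order 82Q_M120A, 82Q and WT, and the bar beside each group is mean ± SD (n = 5). Rora, Lhx1, Lhx5, Foxp4 and Skor2 show all WT points above all points of the other groups, while Foxp2 and Esrrb overlap throughout.

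In 82Q against WT, 6 of the 9 genes fell, 1 rose and 2 were not called. Lhx5 fell 2.0-fold, Foxp4 1.70-fold, Lhx1 1.53-fold, Skor2 1.52-fold, Rora 1.38-fold and Ebf1 1.18-fold, whereas Rorb rose 1.24-fold and Foxp2 and Esrrb differed little. A gene was called at an adjusted p under 0.05 in edgeR's quasi-likelihood test, with every library in the fit and correction over 16808 tested genes, and all 9 genes passed the low-count filter. Of the tested genes 18.7% were called in this comparison, 10.1% lower and 8.63% higher in 82Q. In 5 of the 9 the 82Q and WT libraries did not overlap, against 16.6% of tested genes. The median log2 fold change of the 9 genes was -0.47, beside 0.01 over all tested genes. In a bulk sample, fewer cells of a type and less RNA per cell cannot be told apart.

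In 82Q_M120A against 82Q, Skor2 rose 1.24-fold and none of the other 8 genes was called, in a comparison in which 18.9% of tested genes were called, 10.3% higher and 8.63% lower in 82Q_M120A. Skor2 was also the 1 gene of the 9 whose 82Q_M120A and 82Q libraries did not overlap, against 12.1% of tested genes. The median log2 fold change of the 9 genes was -0.02. In 82Q_M120A against WT, 5 of the 9 fell, Rora, Lhx1, Lhx5, Foxp4 and Skor2, and none rose, where 36.4% of tested genes were called, 17.8% lower and 18.6% higher in 82Q_M120A. The same 5 did not overlap between those groups, against 25.3% of tested genes, and the median of the 9 was -0.30. The 3 comparisons share their libraries in pairs and are not independent of each other.

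**Figure D2:**
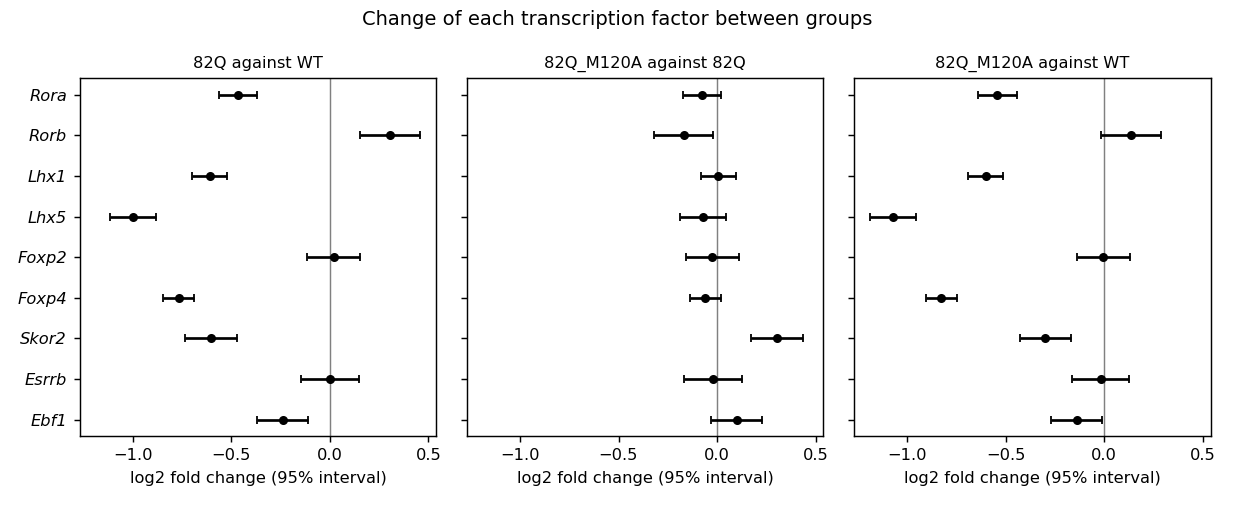
Log2 fold change of each gene in the 3 comparisons. Points are edgeR estimates and bars their approximate 95% intervals, not adjusted for the number of genes, with a vertical line at 0. Lhx5 lies at -1.0 in 82Q against WT and -1.07 in 82Q_M120A against WT, and Skor2 at 0.31 in 82Q_M120A against 82Q.

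Rora (chr9:68653786-69388246, plus strand, mm10) was the most abundant of the 9 per exonic length. It stood at 325, 306, 305, 297 and 321 CPM in 82Q_M120A-1 to 82Q_M120A-5, at 313, 329, 363, 337 and 297 CPM in 82Q-1 to 82Q-5, and at 470, 435, 456, 453 and 449 CPM in WT-1 to WT-5. Every WT library lay above every library of the other groups, which overlapped each other. Means were 311 ± 11.7 CPM in 82Q_M120A, 328 ± 25.05 in 82Q and 453 ± 12.5 in WT (SD, n = 5 each). Rora fell in 82Q against WT (log2 fold change -0.47 ± 0.05 SE, edgeR adjusted p = 5.50e-07) and in 82Q_M120A against WT (-0.54 ± 0.05, edgeR adjusted p = 4.92e-08). Between 82Q_M120A and 82Q its log2 fold change was -0.08, with a 95% interval of -0.17 to 0.02 (edgeR adjusted p = 0.273). The antisense gene Gm15511 shares 82 exonic bases with Rora, and no source used here says whether counting used strand, so reads from these bases cannot be assigned to either strand.

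Rorb (chr19:18930605-19111196, minus strand), which encodes the ROR protein best known from retina and sensory cortex of mice, was the 1 gene of the 9 that rose in 82Q against WT. It stood at 10.8, 11.3, 9.59, 10.5 and 9.44 CPM in 82Q_M120A-1 to 82Q_M120A-5, at 9.60, 11.6, 12.2, 12.8 and 11.9 CPM in 82Q-1 to 82Q-5, and at 9.51, 9.33, 9.66, 8.67 and 9.86 CPM in WT-1 to WT-5. Of the 82Q libraries 4 lay above all WT libraries, and 82Q-1 lay within their range. The log2 fold change was 0.31 ± 0.07 in 82Q against WT (edgeR adjusted p = 0.00578), -0.17 with a 95% interval of -0.32 to -0.02 in 82Q_M120A against 82Q (not called, edgeR adjusted p = 0.109) and 0.14 with an interval of -0.02 to 0.29 in 82Q_M120A against WT (edgeR adjusted p = 0.156). Without 82Q-1 the second of these reached -0.23 and was called (edgeR adjusted p = 0.0165). Among the 8 libraries low in choroid plexus markers, of which 1 was WT, the difference between 82Q and WT was 0.41 and not called (edgeR adjusted p = 0.253).

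The ratio of Rora to Rorb counts within a library needs no scaling between libraries. It ran over 27.0 to 34.0 in 82Q_M120A, 24.9 to 32.6 in 82Q and 45.5 to 52.3 in WT, with no overlap between WT and the others. On the log2 scale the mean ratio was 4.91 ± 0.13 in 82Q_M120A, 4.82 ± 0.15 in 82Q and 5.59 ± 0.08 in WT (SD, n = 5 each). It was lower by 0.77 in 82Q than in WT and by 0.67 in 82Q_M120A than in WT, both with p = 0.00794 in an exact two-sided permutation test, the smallest this design allows, and 0.0119 after adjustment over 9 ratio tests. Between 82Q_M120A and 82Q it differed by 0.09 (exact permutation p = 0.302, adjusted 0.388).

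Because Rora and Rorb moved in opposite directions in 82Q, the 250 bases before the annotated start of each are printed, with those of Pcp4, a RORA target gene of Purkinje cells that fell in 82Q. The sequences are from RefSeq on GRCm38.p6, the mm10 assembly, and read 5′ to 3′ on the strand of the gene. Capitals mark AGGTCA or its reverse complement TGACCT, and CCAAT or its reverse complement ATTGG. The windows are chr9:68653536-68653785 (plus strand) for Rora, chr19:19111197-19111446 (minus strand) for Rorb and chr16:96467356-96467605 (plus strand) for Pcp4.
Rora: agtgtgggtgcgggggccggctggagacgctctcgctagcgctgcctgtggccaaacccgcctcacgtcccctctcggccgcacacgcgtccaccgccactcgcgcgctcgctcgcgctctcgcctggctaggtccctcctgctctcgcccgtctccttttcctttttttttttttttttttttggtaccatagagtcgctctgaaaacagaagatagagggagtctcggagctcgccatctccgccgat
Rorb: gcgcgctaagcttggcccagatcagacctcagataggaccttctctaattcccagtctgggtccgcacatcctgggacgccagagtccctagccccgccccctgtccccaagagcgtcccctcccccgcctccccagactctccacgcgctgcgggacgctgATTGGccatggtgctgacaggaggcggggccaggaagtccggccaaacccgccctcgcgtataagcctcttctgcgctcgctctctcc
Pcp4: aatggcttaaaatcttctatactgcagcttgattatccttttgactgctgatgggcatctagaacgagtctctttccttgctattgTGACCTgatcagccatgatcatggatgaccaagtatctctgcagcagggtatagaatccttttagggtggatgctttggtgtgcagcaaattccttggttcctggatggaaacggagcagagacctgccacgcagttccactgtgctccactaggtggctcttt
The Rora window held neither motif, the Rorb window held CCAAT on the reverse strand, and the Pcp4 window held AGGTCA on the reverse strand. Windows were at hand for 6 of the 9 genes (9 windows), those of Rora, Rorb, Lhx1, Foxp4, Esrrb and Ebf1. Not all of these windows lie before the annotated start of the gene, as those of Ebf1 lie within it, and some overlap annotated exons. Searched on both strands, AGGTCA was in 0 of these 9 windows, beside 11.4% of 15740 windows of the same length. These 9 windows are too few to tell 0 from that share. Of the 6 target genes 3 had a window, and AGGTCA was in a window of 2 of them, Pcp2 and Pcp4, and not of Slc1a6. Windows of Pcp2 overlap, so its matches can be the same letters, and 3 genes are too few to set against the share of all windows. CCAAT was in 3 of the 9 windows, beside 34.5%. AGGTCA was searched alone, without the AT-rich stretch that precedes it where RORA binds, and the Pcp4 match has no such stretch before it. A match is a string of letters and not a measured binding site.

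**Figure D3:**
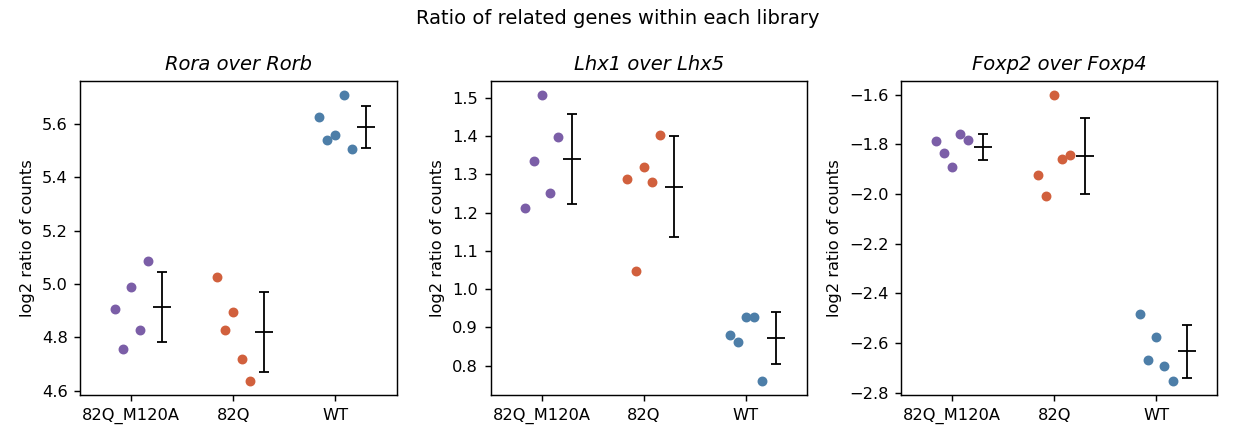
Ratio of counts of related genes within each library. The vertical axes are log2 ratios and do not start at 0, points are libraries in the order 82Q_M120A, 82Q and WT, and bars are mean ± SD (n = 5). In each panel the WT libraries lie apart from all others, below them for Lhx1 over Lhx5 and Foxp2 over Foxp4 and above them for Rora over Rorb.

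The RORA target genes of Purkinje cells fell with Rora. All 6 of 6 fell in 82Q against WT with a median log2 fold change of -1.01, and all 6 fell in 82Q_M120A against WT with a median of -1.06, while none was called in 82Q_M120A against 82Q. Itpr1, the intracellular calcium channel of the smooth endoplasmic reticulum, averaged 1844 ± 248 CPM in 82Q_M120A, 1985 ± 175 in 82Q and 5020 ± 232 in WT. Pcp4, a calmodulin-binding peptide, averaged 195 ± 22.9 CPM in 82Q_M120A, 186 ± 14.9 in 82Q and 459 ± 20.9 in WT. Shh, the mitogen that Purkinje cells supply to granule cell precursors, changed least, at 4.46 ± 0.505 CPM in 82Q_M120A, 4.37 ± 0.348 in 82Q and 5.43 ± 0.185 in WT (log2 fold change -0.32 ± 0.08 in 82Q against WT, edgeR adjusted p = 0.00894). The log2 fold changes of Itpr1 (-1.34) and Pcp4 (-1.30) in 82Q against WT were larger than that of Rora (-0.47), a difference that was not tested. Of the 12 Purkinje cell markers, a list that shares Pcp2 and Slc1a6 with the targets, all 12 also fell in 82Q against WT (median -1.08), and their summed level ran over 3590 to 4434 CPM in 82Q_M120A, 3369 to 3895 in 82Q and 7927 to 8967 in WT. The part of this fall in the lower Rora level was not tested.

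Of 10 ROR partner and competitor genes, 1 rose and 1 fell in 82Q against WT. In 82Q_M120A against 82Q, 2 rose and 2 fell. Of all tested genes 18.7% and 18.9% were called in these comparisons. The coregulator gene Nrip1 rose in 82Q against WT (0.16, edgeR adjusted p = 0.0421). Ppargc1a, a coactivator of energy metabolism genes, fell in 82Q_M120A against 82Q (-0.20, edgeR adjusted p = 0.00837). The other called genes of this list are not reported here. Of 6 clock genes with ROR elements none was called in 82Q against WT or in 82Q_M120A against 82Q, and Npas2 rose in 82Q_M120A against WT.

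Among the LIM homeodomain genes, Lhx5 (chr5:120431699-120441223, plus strand) showed the largest fold change of the 9. It stood at 14.2, 13.7, 12.4, 14.0 and 14.4 CPM in 82Q_M120A-1 to 82Q_M120A-5, at 14.2, 16.6, 13.5, 14.3 and 13.7 CPM in 82Q-1 to 82Q-5, and at 29.7, 29.0, 29.3, 27.4 and 29.1 CPM in WT-1 to WT-5. WT lay far above the other groups, which overlapped. Means were 13.8 ± 0.793 CPM in 82Q_M120A, 14.4 ± 1.23 in 82Q and 28.9 ± 0.884 in WT. The log2 fold change was -1.0 ± 0.06 in 82Q against WT (edgeR adjusted p = 2.54e-10), -0.07 with a 95% interval of -0.19 to 0.05 in 82Q_M120A against 82Q (edgeR adjusted p = 0.413) and -1.07 in 82Q_M120A against WT (edgeR adjusted p = 9.71e-11). Lhx5 shares 69 exonic bases with the antisense gene Gm27199, with the same limit as for Rora. Around Lhx5, 10 of 22 tested genes within 1 Mb fell in 82Q against WT and none rose, beside 10.1% lower among all tested genes. The same count was made around each of the 9 genes, and this window held the most falls. Over all 9 windows 22 of 142 neighbours fell and 9 rose in this comparison, 21.8% called beside 18.7% of all tested genes. In 82Q_M120A against WT 9 of the 22 fell and 3 rose, beside 17.8% lower and 18.6% higher among all tested genes.

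Lhx1 (chr11:84518284-84525535, minus strand) stood at 32.8, 34.7, 35.3, 33.4 and 38.1 CPM in 82Q_M120A-1 to 82Q_M120A-5, at 34.6, 34.3, 33.8, 34.7 and 36.1 CPM in 82Q-1 to 82Q-5, and at 54.7, 52.8, 55.7, 52.1 and 49.2 CPM in WT-1 to WT-5. The 82Q_M120A and 82Q libraries overlapped and WT lay above both. Lhx1 fell in 82Q against WT (-0.61 ± 0.04, edgeR adjusted p = 4.40e-09) and in 82Q_M120A against WT (-0.60, edgeR adjusted p = 3.93e-09), and its log2 fold change in 82Q_M120A against 82Q was 0.01 with a 95% interval of -0.08 to 0.10 (edgeR adjusted p = 0.935). Lhx1 and Lhx5 changed unequally. The log2 ratio of Lhx1 to Lhx5 counts averaged 1.34 ± 0.12 in 82Q_M120A, 1.27 ± 0.13 in 82Q and 0.87 ± 0.07 in WT. The difference was 0.40 in 82Q against WT and 0.47 in 82Q_M120A against WT (exact permutation p = 0.00794 and adjusted 0.0119 for each), and 0.07 in 82Q_M120A against 82Q (exact permutation p = 0.413).

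Of 11 tested LIM cofactors and relatives, 2 fell and none rose in 82Q against WT, where 18.7% of all tested genes were called. The cofactor gene Ldb1 was not called there. Lmo2, a LIM-only adaptor, averaged 15.9 ± 0.681 CPM in 82Q_M120A, 17.2 ± 0.617 in 82Q and 22.0 ± 0.772 in WT (-0.35 ± 0.04 in 82Q against WT, edgeR adjusted p = 4.85e-06). Ssbp4, a single-stranded DNA binding protein that joins LDB1 complexes, was the other (-0.19, edgeR adjusted p = 0.00905). In 82Q_M120A against 82Q, 1 rose and 3 fell, Lhx9 to 0.776 ± 0.131 CPM in 82Q_M120A against 1.71 ± 0.319 in 82Q (-1.14 ± 0.19, edgeR adjusted p = 0.000414).

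Of the forkhead pair, Foxp4 fell and Foxp2 was level. Foxp4 (chr17:47867133-47924645, minus strand), which mouse Purkinje cells need to keep their dendrites, stood at 36.1, 38.7, 38.6, 38.03 and 41.1 CPM in 82Q_M120A-1 to 82Q_M120A-5, at 39.8, 42.2, 37.99, 41.6 and 39.0 CPM in 82Q-1 to 82Q-5, and at 68.2, 69.8, 67.8, 65.9 and 69.6 CPM in WT-1 to WT-5. Means were 38.5 ± 1.79 CPM in 82Q_M120A, 40.1 ± 1.77 in 82Q and 68.3 ± 1.58 in WT, so the gap to WT was many times the spread within a group. The log2 fold change was -0.77 ± 0.04 in 82Q against WT (edgeR adjusted p = 7.55e-11), -0.06 with a 95% interval of -0.14 to 0.02 in 82Q_M120A against 82Q (edgeR adjusted p = 0.300) and -0.83 in 82Q_M120A against WT (edgeR adjusted p = 2.54e-11).

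Foxp2 (chr6:14901349-15441977, plus strand), a marker of Purkinje cells, stood at 10.5, 10.8, 10.4, 11.2 and 11.96 CPM in 82Q_M120A-1 to 82Q_M120A-5, at 10.5, 10.5, 12.5, 11.5 and 10.9 CPM in 82Q-1 to 82Q-5, and at 12.2, 11.0, 11.4, 10.2 and 10.3 CPM in WT-1 to WT-5. All groups overlapped. Its log2 fold change was 0.02 with a 95% interval of -0.12 to 0.15 in 82Q against WT (edgeR adjusted p = 0.882), so a change the size of that of Foxp4 lay outside the interval. In 82Q_M120A it was -0.02 against 82Q (-0.16 to 0.11) and -0.01 against WT (-0.14 to 0.13). The log2 ratio of Foxp2 to Foxp4 counts averaged -1.81 ± 0.05 in 82Q_M120A, -1.85 ± 0.15 in 82Q and -2.63 ± 0.11 in WT. The difference was 0.79 in 82Q against WT and 0.82 in 82Q_M120A against WT (exact permutation p = 0.00794 and adjusted 0.0119 for each), and 0.04 in 82Q_M120A against 82Q (exact permutation p = 0.643). Of 8 FOXP relatives and corepressors only Ctbp1 was called in 82Q against WT (-0.10, edgeR adjusted p = 0.0433). In 82Q_M120A the histone deacetylase gene Hdac1 rose against 82Q (0.24, edgeR adjusted p = 0.000462) and the relative Foxp1 rose against WT (0.24, edgeR adjusted p = 0.000755).

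Skor2 (chr18:76856405-76900342, plus strand) had the WT group highest, 82Q lowest and 82Q_M120A between them. It stood at 10.4, 10.1, 9.42, 11.2 and 11.9 CPM in 82Q_M120A-1 to 82Q_M120A-5, at 8.18, 8.99, 9.01, 8.88 and 7.74 CPM in 82Q-1 to 82Q-5, and at 13.6, 12.7, 13.2, 12.8 and 12.8 CPM in WT-1 to WT-5. No group overlapped another. Means were 10.6 ± 0.966 CPM in 82Q_M120A, 8.56 ± 0.570 in 82Q and 13.0 ± 0.359 in WT.

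Skor2 fell in 82Q against WT (-0.60 ± 0.06, edgeR adjusted p = 1.03e-06), rose in 82Q_M120A against 82Q (0.31 ± 0.06, edgeR adjusted p = 0.00219) and fell in 82Q_M120A against WT (-0.30 ± 0.06, edgeR adjusted p = 0.00108). The rise of 0.31 lay with a 95% interval of 0.17 to 0.44. It was 0.32 among the 7 libraries rich in choroid plexus markers (edgeR adjusted p = 0.0926, 1 library of 82Q_M120A) and 0.29 among the other 8 (edgeR adjusted p = 0.0660), so the size held within both sets and the call in neither. In the same 8 libraries the fall in 82Q_M120A against WT was -0.27 and not called (edgeR adjusted p = 0.197). Of the 12 Purkinje markers, Car8 (0.48 ± 0.08, edgeR adjusted p = 0.000600) and Rgs8 (0.50 ± 0.13, edgeR adjusted p = 0.0143) also rose in 82Q_M120A against 82Q and none fell. Among all tested genes 18.9% were called there, 10.3% higher. The Rgs8 libraries of these 2 groups overlapped, and the median log2 fold change of the 12 markers was 0.08. Of 6 relatives and SMAD partners 3 fell in that comparison and none rose. Skor1, its closest relative, averaged 20.6 ± 1.40 CPM in 82Q_M120A, 25.5 ± 1.37 in 82Q and 27.3 ± 2.24 in WT, and fell in 82Q_M120A against 82Q (-0.31 ± 0.06, edgeR adjusted p = 0.00125). Smad3, a mediator of TGF-beta signals, fell in each comparison (-0.19 in 82Q against WT, -0.16 in 82Q_M120A against 82Q and -0.35 in 82Q_M120A against WT).

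Esrrb (chr12:86361117-86521628, plus strand), an orphan receptor related to the estrogen receptors, did not differ detectably between any groups. It stood at 15.3, 17.5, 15.8, 16.3 and 15.4 CPM in 82Q_M120A-1 to 82Q_M120A-5, at 15.4, 18.7, 15.1, 15.7 and 16.6 CPM in 82Q-1 to 82Q-5, and at 14.7, 15.4, 17.0, 15.7 and 18.8 CPM in WT-1 to WT-5. All groups overlapped. The 95% interval of its log2 fold change was -0.14 to 0.15 in 82Q against WT, -0.17 to 0.13 in 82Q_M120A against 82Q and -0.16 to 0.13 in 82Q_M120A against WT. Of 3 tested relatives and partners, Nr0b2, a corepressor of nuclear receptors, was the 1 called in 82Q against WT. Nr0b2 averaged 0.998 ± 0.235 CPM in 82Q_M120A, 1.04 ± 0.0947 in 82Q and 1.78 ± 0.333 in WT, and fell in 82Q against WT (-0.76 ± 0.16, edgeR adjusted p = 0.00283) and in 82Q_M120A against WT (-0.82 ± 0.16, edgeR adjusted p = 0.000714). Esrrg averaged 113 ± 5.59 CPM in 82Q_M120A, 117 ± 3.98 in 82Q and 111 ± 6.45 in WT and was not called in any comparison. Esrra, a regulator of mitochondrial genes, averaged 89.6 ± 7.32 CPM in 82Q_M120A, 92.0 ± 6.28 in 82Q and 102 ± 4.44 in WT, and fell in 82Q_M120A against WT (-0.19, edgeR adjusted p = 0.0105).

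Ebf1 (chr11:44617317-45008091, plus strand) showed the smallest fall. It stood at 42.2, 41.1, 45.8, 46.1 and 46.6 CPM in 82Q_M120A-1 to 82Q_M120A-5, at 37.9, 42.8, 45.2, 45.1 and 35.9 CPM in 82Q-1 to 82Q-5, and at 51.0, 48.9, 49.3, 44.7 and 50.4 CPM in WT-1 to WT-5. The 82Q and WT groups overlapped through WT-4, the lowest WT library. Ebf1 fell in 82Q against WT (-0.24 ± 0.06, edgeR adjusted p = 0.0108), and was not called in 82Q_M120A against 82Q (0.10, 95% interval -0.03 to 0.23, edgeR adjusted p = 0.287) or against WT (-0.14, interval -0.27 to -0.01, edgeR adjusted p = 0.0863). WT-4 is also the 1 WT library low in choroid plexus markers. Among the libraries low in these markers the log2 fold change in 82Q against WT was -0.07 and not called (edgeR adjusted p = 0.837), and among the rich ones it was -0.35 and called (edgeR adjusted p = 0.00412). With a choroid plexus score in the fit the gene was called. Without WT-4 the fall in 82Q_M120A against WT was -0.17 and called (edgeR adjusted p = 0.0403).

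Ebf1 is also made by mural cells of vessels. In 82Q against WT, where 18.7% of all tested genes were called, 2 of 10 endothelial and mural markers rose and none fell. Their sum ran over 274 to 306 CPM in 82Q_M120A, 248 to 274 in 82Q and 236 to 282 in WT, none was at 0, and their part in the result was not tested. Its relative Ebf2, found in a subset of Purkinje cells, averaged 8.02 ± 1.38 CPM in 82Q_M120A, 6.30 ± 0.656 in 82Q and 14.7 ± 1.67 in WT. Ebf2 fell in 82Q against WT (-1.22 ± 0.11, edgeR adjusted p = 2.10e-07) and rose in 82Q_M120A against 82Q (0.35 ± 0.11, edgeR adjusted p = 0.0319). Ebf3 rose in 82Q_M120A against 82Q (0.22, edgeR adjusted p = 0.0168) and against WT (0.31, edgeR adjusted p = 0.000630). No other gene of the 5 EBF relatives and zinc finger partners was called in 82Q against WT.

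Of 12 further transcription factor genes listed for Purkinje cells, 3 fell and 1 rose in 82Q against WT (18.7% of all tested genes called). Their median log2 fold change was -0.03. Not all are particular to these cells, and Etv1 and Tfap2b also stand in the granule cell and interneuron marker lists. Bcl11a, a zinc finger repressor, averaged 9.28 ± 0.977 CPM in 82Q_M120A, 9.27 ± 0.381 in 82Q and 13.4 ± 0.987 in WT (-0.54 ± 0.07 in 82Q against WT, edgeR adjusted p = 1.69e-05). Dach1 fell by 0.29 and En1, a homeobox gene of the hindbrain, by 0.85 on the log2 scale, and Olig2, which adult oligodendrocytes also express, rose by 0.29. In 82Q_M120A against 82Q, Tfap2a and Tfap2b, AP-2 factors of cerebellar inhibitory neurons, fell by 0.36 and 0.30.

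**Figure D4:**
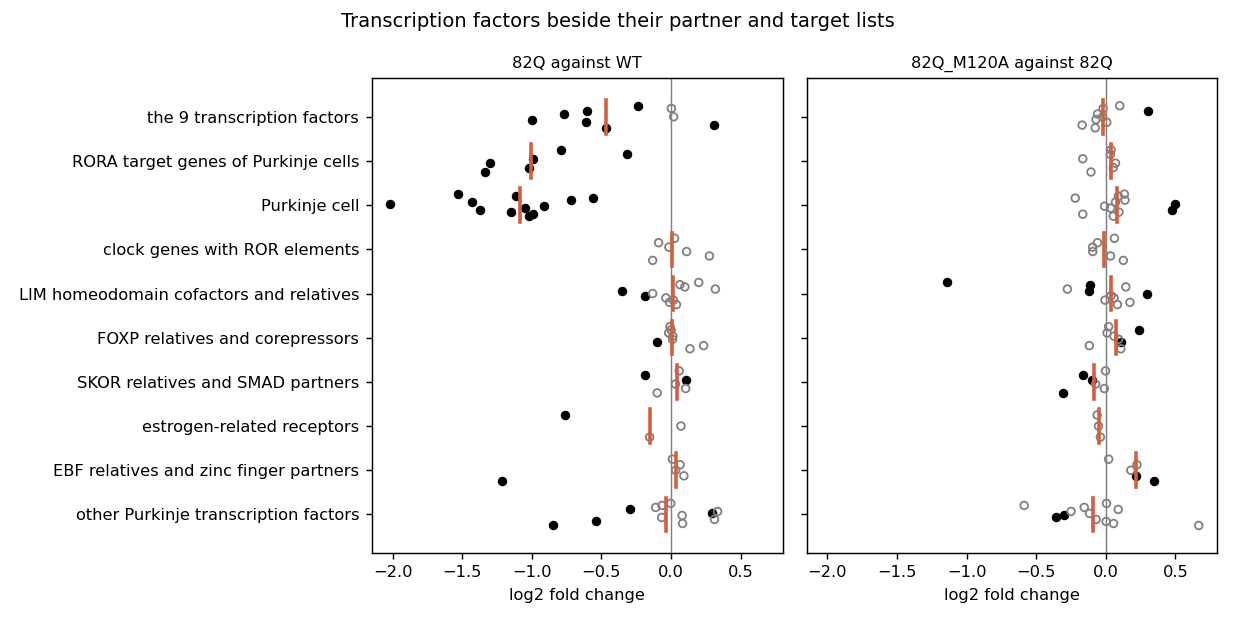
Log2 fold changes of the 9 genes and of lists of their targets, partners and relatives, in 82Q against WT and in 82Q_M120A against 82Q. Each point is a tested gene, filled where called and open where not, and the orange line is the list median. The RORA targets and Purkinje cell markers lie below 0 in 82Q against WT (medians -1.01 and -1.08), and the partner lists have medians between -0.15 and 0.05 there.

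Levels of different genes were compared as CPM per kilobase of exon. In 82Q_M120A the order was Rora at 23.8 CPM per kb, Lhx1 at 8.56, Foxp4 at 7.82, Lhx5 at 5.12, Ebf1 at 4.55, Skor2 at 3.37, Esrrb at 2.66, Rorb at 0.933 and Foxp2 at 0.672, and the libraries of Lhx1 and Foxp4, and of Lhx5 and Ebf1, overlapped. In 82Q it was Rora at 25.1 CPM per kb, Lhx1 at 8.52, Foxp4 at 8.14, Lhx5 at 5.37, Ebf1 at 4.24, Skor2 at 2.73, Esrrb at 2.70, Rorb at 1.05 and Foxp2 at 0.683, with overlap of Lhx1 and Foxp4 and of Skor2 and Esrrb. In WT it was Rora at 34.6 CPM per kb, Foxp4 at 13.9, Lhx1 at 13.0, Lhx5 at 10.7, Ebf1 at 5.01, Skor2 at 4.15, Esrrb at 2.70, Rorb at 0.849 and Foxp2 at 0.674, and only Foxp4 and Lhx1 overlapped among neighbours. By this measure Rora stood highest and Rorb and Foxp2 lowest in every group. The lengths join all annotated exons of a gene, and the annotation behind the counts is not known. By CPM without the length, Skor2 was lowest in 82Q, at 8.56 beside 11.2 for Foxp2 and 11.6 for Rorb.

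Other cell types of the cerebellum make some of these genes too, Rora in molecular layer interneurons among them. Of 9 markers of molecular layer interneurons and Golgi cells, 2 rose and none fell in 82Q against WT (18.7% of all tested genes called). Of these 9 markers 3 fell in 82Q_M120A against 82Q (18.9% of all tested genes called). Their sum ran over 525 to 667 CPM in 82Q_M120A, 647 to 706 in 82Q and 604 to 693 in WT, and none was at 0. In 82Q against WT all 8 microglia markers rose, 6 of 8 oligodendrocyte markers rose and none fell, 2 of 8 astrocyte and Bergmann glia markers rose and 2 fell, and 1 of 9 granule cell markers rose. No choroid plexus or meningeal marker (7 each) was called. The sum of the choroid plexus markers ran over 43.1 to 2803 CPM in 82Q and 37.6 to 2612 in WT. Their median log2 fold change was -0.64, so the lack of a call does not show equal levels. Of 4 tested markers of the cerebellar nuclei and brainstem 1 rose and 1 fell. The part of these shifts in the results for the 9 genes was not tested.

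Across the 15 libraries, Atl2, Lppr5 and Plekhd1 were among the 5 genes whose log2 CPM was most like that of Rora of 13205 genes, with Pearson r of 0.985, 0.984 and 0.980. The libraries form a WT set and a set of both other groups at Rora, and all values share the scaling of each library. Among the other 8 genes Lhx5 (0.955), Foxp4 (0.9495) and Lhx1 (0.931) came nearest to Rora and Rorb was opposite (-0.503). With group means subtracted, which leaves the variation within groups, the nearest genes were Dpp10 (0.904), Parp2 (0.902), Impad1 (0.901), Purb (0.900) and Bag4 (0.896). Of the other 8 Ebf1 (0.62), Skor2 (0.59) and Foxp2 (0.54) came nearest, at ranks 610, 809 and 1087 of the 13205 genes. Lhx1 (-0.08) and Foxp4 (-0.11) had coefficients near 0, and 15 libraries are too few to show that a relation is absent. In the same within-group view Skor2 varied most with the mean log2 level of the 12 Purkinje markers (0.83), ahead of Rora (0.62) and Lhx5 (0.60). The coefficient of Lhx1 was -0.17. These are descriptions over 15 libraries and have no test.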

How the data were processed

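The deposited table holds whole-number counts per gene, which the authors made with HISAT2 2.0.1, featureCounts and Subread on mm10, per the submitters' processing notes, which also name CASAVA 1.8, R 3.3.3 and DESeq2 1.14.1. No source used here gives the annotation, the strand setting or the treatment of multi-mapping reads. RNA was total RNA from cerebellum in TruSeq libraries, per the labels' protocols. Counts from 15 columns, 5 per group, were fitted in edgeR 4.0.16 (limma 3.58.1, R 4.3.3) on group alone, by robust glmQLFit after TMM scaling and filterByExpr, two-sided, with Benjamini-Hochberg adjustment over 16808 genes; 7612 were not tested. Standard errors are the absolute log2 fold change over the square root of F. Ratios used counts plus 0.5. Log2 CPM for correlations had a prior count of 2. Coordinates and exonic lengths are from GENCODE M21. The members and the gene lists were chosen with earlier results of these data known. In each list up to 4 called genes with the smallest adjusted p are named, or the 2 most abundant where none was called, and the text prints fewer; Shh, Esrra, Foxp1, Skor1 and Ebf2 values in comparisons outside that rule were added after they were seen. Some genes that the rule names are not reported here. Methods were tested on simulated data. Alternatives were limma-voom, DESeq2 1.42.0, scaling by RLE factors or by library size alone, other filters, a 1.2-fold test, adjusted p under 0.01, a choroid plexus covariate, only the groups compared, each library left out, and, chosen after seeing the data, the libraries over and under 1000 CPM of choroid plexus markers.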

Additional observations from a re-analysis of the deposited data

Results flagged for a closer look

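In 36 groups of 5 libraries checked for a library apart from the rest, 2 had one, where chance gives about 1 in 20. Both concern Lhx5. Library 82Q-2 stood at 16.57 CPM, above the other 82Q libraries at 13.5 to 14.3 CPM, and library WT-4 stood at 27.39 CPM, below the other WT libraries at 29.0 to 29.7 CPM. Both lie on their group's side of the gap between 82Q and WT, and Lhx5 was called in 82Q against WT without either.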

How the results depend on the processing

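No log2 fold change that was called changed sign under any alternative. In 82Q_M120A against 82Q, where 1 of the 9 genes was called, the count was 0 under a test against a 1.2-fold change, 0 in the libraries over and 0 in the libraries under 1000 CPM of choroid plexus markers (fewer libraries each), and 1 to 2 with each library left out, 2 without 82Q-1. The counts in 82Q against WT and 82Q_M120A against WT stayed within 1.5 times. DESeq2, limma-voom, RLE factors, library size only, both other filters and the choroid plexus covariate changed no call of the 9 genes. The 1.2-fold test lost Rorb and Ebf1 in 82Q against WT and Skor2 in both comparisons of 82Q_M120A, and adjusted p under 0.01 lost Ebf1. With only the groups compared in the fit, Ebf1 was called in 82Q_M120A against WT (-0.14, edgeR adjusted p = 0.0303). All 9 ratio tests kept their side of the threshold, also with a pseudocount of 5. In the split by choroid plexus markers, 1 library stood for WT or for 82Q_M120A and was assumed to vary like the other groups. No paired analysis was possible because the columns carry no replicate number. The lowest count of any of the 9 genes in a library was 369 (Rorb, WT-5), and for Rorb and Skor2 in WT counting error can be as large as the spread between libraries.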
